A study of Homo sapiens with 6 samples.

Results

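The genes described here are 9 transcription factors that mark or help set squamous and lung epithelial lineages: SOX2, SOX4, SOX9, TFAP2C, KLF5, PITX1, NKX2-1, FOXA1 and FOXA2. They were taken from a list of 10 such factors, and the tenth is not analysed here. Every probe set whose platform annotation names exactly 1 of them was used, which gave 25 of the 49293 probe sets on the array and 9 of the 18132 genes with a probe set of their own. Levels were measured in 6 tumors of CRL-5889, an established line labelled as human squamous lung carcinoma that is also known as NCI-H1703. In 3 tumors the implanted cells had been transfected with the TRA2B-DNAH5 fusion (fusion tumors 1 to 3), and in 3 with the vector (vector tumors 1 to 3). All were grown in nude mice, which lack T cells but keep other immune and stromal cells, and were taken at 4 weeks. The labels do not give the promoter of the construct, whether the transfected cells were 1 clone, or which mouse carried which tumor, so the fusion and other differences between the transfected populations cannot be told apart. The labels call the tumors of a group biological replicates, and the p-values below measure the spread between these tumors.

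Lineage factors bind DNA at enhancers of tissue-specific genes and hold a cell in 1 identity. SOX2 is an HMG-box factor of basal airway cells and a known driver of squamous lung cancer, while its relatives SOX4 and SOX9 are found in many carcinomas, SOX9 also in the distal tips of the growing lung. NKX2-1 is the homeodomain factor of lung and thyroid epithelium and a marker of lung adenocarcinoma, and FOXA1 and FOXA2 are forkhead pioneer factors that open chromatin for it and for other endodermal factors. KLF5, a zinc finger factor, and TFAP2C, an AP-2 factor, act in basal and squamous epithelia, and PITX1 is a homeodomain factor of the hindlimb and oral epithelium.

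SOX2 and FOXA1 are the members on which the results below turn, so the 250 bases before their annotated start are shown, 5′ to 3′ on the strand of the gene, from RefSeq on GRCh38.p14. The SOX2 window is chr3:181711675-181711924 on the plus strand and the FOXA1 window is chr14:37595250-37595499 on the minus strand. Capitals mark ACAAAG, a form of the site that SOX factors bind, and CCAAT, a common promoter box, each searched on both strands (so CTTTGT and ATTGG are also in capitals). The motifs do not overlap each other in these windows.
SOX2: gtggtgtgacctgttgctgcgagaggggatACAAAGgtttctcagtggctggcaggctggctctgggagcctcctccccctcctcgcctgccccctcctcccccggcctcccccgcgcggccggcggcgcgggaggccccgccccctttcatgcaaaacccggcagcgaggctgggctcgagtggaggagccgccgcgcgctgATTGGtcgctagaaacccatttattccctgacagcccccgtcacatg
FOXA1: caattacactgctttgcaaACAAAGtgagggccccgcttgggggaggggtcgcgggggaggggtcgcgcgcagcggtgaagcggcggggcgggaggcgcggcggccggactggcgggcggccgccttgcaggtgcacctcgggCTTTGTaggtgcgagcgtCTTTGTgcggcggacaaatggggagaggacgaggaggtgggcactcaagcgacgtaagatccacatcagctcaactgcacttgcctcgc
The SOX2 window held ACAAAG once, starting at position -220 (the base before the gene's start is -1), and 1 CCAAT box on the other strand. The FOXA1 window held ACAAAG 3 times, from positions -231, -107 and -89, and no CCAAT box. Of 35116 promoter windows of this length in the table, 13.7% held ACAAAG and 32% held CCAAT. Both windows were rich in G and C (68.8% for SOX2 and 67.2% for FOXA1, against a median of 58% over all windows). A match describes letters in a window and is not a site of binding. Promoters of 6 of the 9 factors were in the table. Among these, the windows of SOX4, KLF5, PITX1 and NKX2-1 held no ACAAAG. Another form of the SOX site, which differs only by thymine in the next-to-last base, was also searched on both strands. It was found in 1 KLF5 window, starting at position -58, and not in the windows of SOX2 or FOXA1. Of the 35116 promoter windows, 21.2% held either form.

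The authors deposited log2 values, and all differences below are fusion minus vector on that log2 scale. Levels are those of single probe sets and are not compared between genes. Genes averaging under 4.94 in their brightest probe set (the 30th percentile over the array) were not tested, and all 9 factors stayed in. As a second reference for dim probe sets, 359 probe sets of olfactory receptors, which serve odour sensing neurons, had a median level of 4.30 and a 95th percentile of 5.81. SOX2, SOX4, TFAP2C, PITX1, NKX2-1 and FOXA1 had their brightest probe set above 5.81, whereas SOX9, KLF5 and FOXA2 did not. The arrays had medians of 6.27 to 6.39, and Pearson's r between any 2 arrays over all probe sets was 0.989 to 0.997. Vector tumor 1 stood apart on the first principal component, with a score of 30.1 against -8.58 to -3.68 in the other tumors, so values without it are given where it matters.

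None of the 9 factors passed the threshold of adjusted p 0.05 with all 6 tumors (limma with Benjamini-Hochberg adjustment over 13694 genes), where 10 genes in all, or 0.073%, did (0.0146% with a lower level in fusion tumors). SOX2 and FOXA1 came nearest, both with lower levels in fusion tumors, and were 2 of 9 with an unadjusted limma p below 0.05, a share of 5.89% over all genes (2.73% lower in fusion tumors). The groups did not overlap for SOX2, FOXA1 and SOX9, 3 of 9 factors, while this held for 11.7% of all genes tested (5.74% lower in fusion tumors). The difference was below 0 for 7 of the 9 factors and for 49.2% of all genes. Its median was -0.18 over the factors and 0.0020 over all genes. PITX1 was the middle factor, and without vector tumor 1 it was again the middle factor, at -0.054. Without that tumor 6 of the 9 factors lay below 0. Over single probe sets, 22 of the 25 lay below 0 (47.2% of all probe sets did) and 4 of 25 did not overlap between groups (10.8% of all did, 4.9% lower in fusion tumors). Limma called 0 of the 25 (0.0101% of all probe sets), and 5 had an unadjusted p below 0.05, all lower in fusion tumors (2.13% of all were). They were SOX2 11720992_a_at and 11720993_at, FOXA1 11723333_at, and SOX9 11720447_s_at and 11720448_at. Those of SOX9 lay below the filter level. Probe sets of 1 gene measure the same RNA and are not independent of each other. Because the tumors were measured whole, fewer cells of a type and less RNA per cell cannot be told apart.

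**Figure D1:**
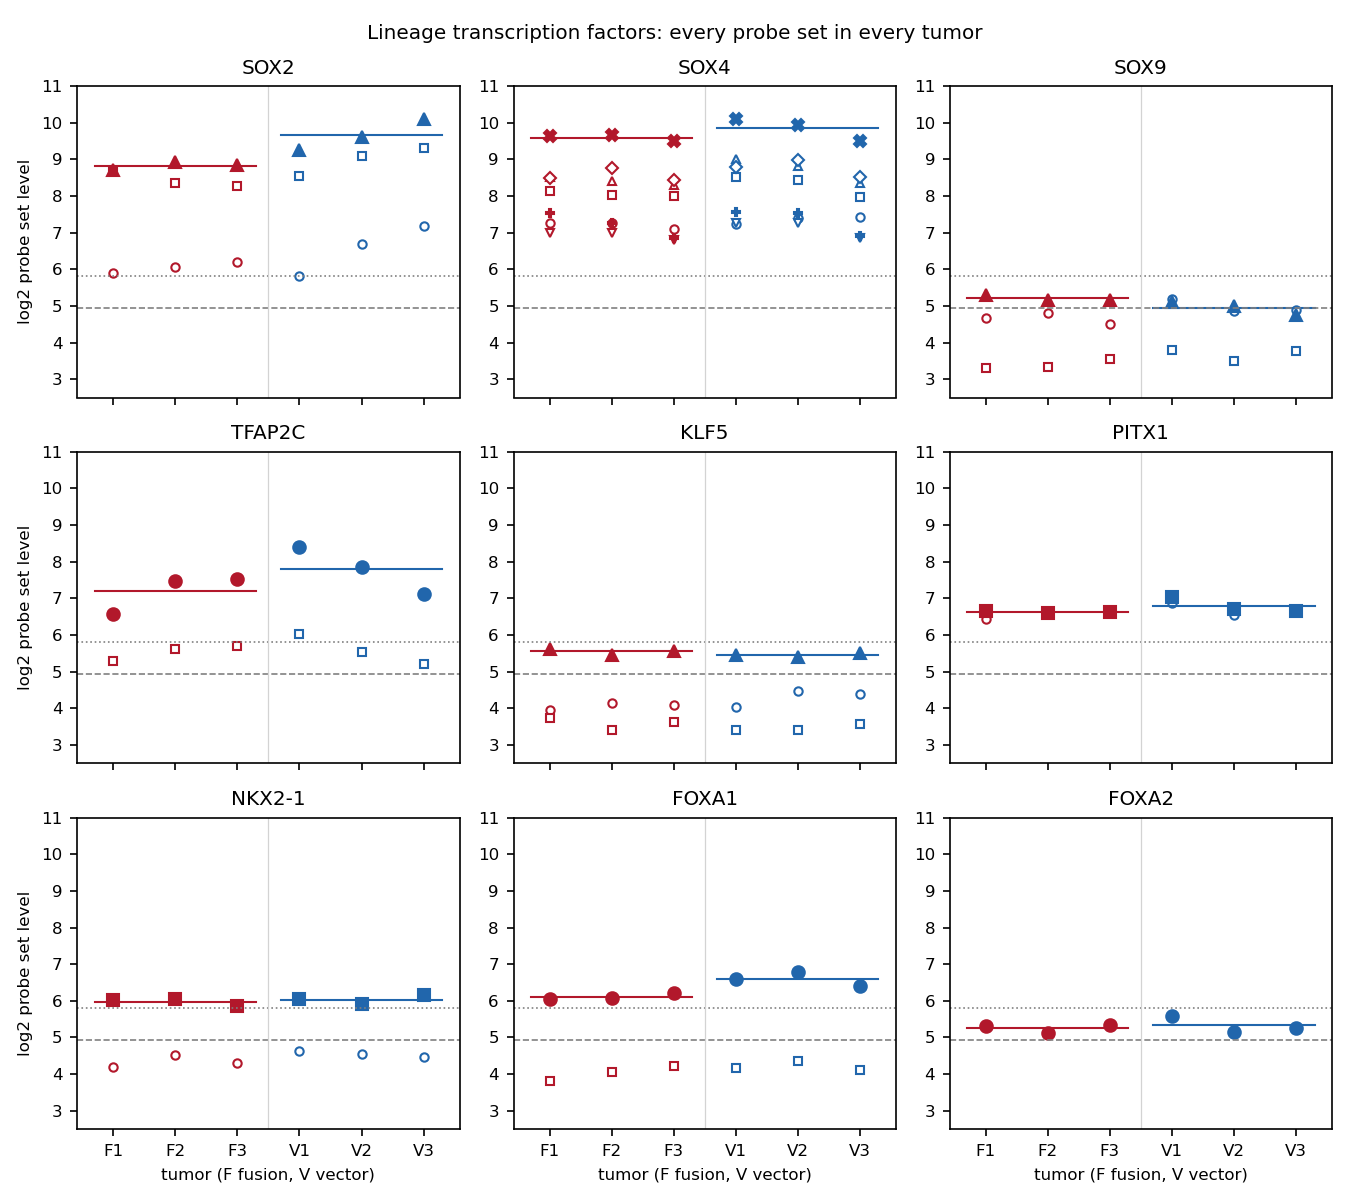
Log2 level of each of the 25 probe sets (symbols) of the 9 factors in fusion tumors F1 to F3 (red) and vector tumors V1 to V3 (blue). Filled large symbols are the brightest probe set of each gene with a line at its group mean, the dashed line is the filter level of 4.94 and the dotted line is the olfactory receptor level of 5.81. SOX2 shows all 3 vector tumors above the fusion tumors in its brightest probe set, and SOX9, KLF5 and FOXA2 stay below the dotted line.

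Among the SOX factors, SOX2 had the largest difference. Its brightest probe set, 11720993_at, read 8.70, 8.92 and 8.85 in the fusion tumors (numbers 1 to 3) and 9.24, 9.62 and 10.10 in the vector tumors. Every vector tumor was above every fusion tumor, and the vector tumors were spread more widely, with vector tumor 3 highest and vector tumor 1 lowest. The group means were 8.82 ± 0.11 and 9.65 ± 0.43 (SD, n = 3 each), so the level was 1.78-fold lower in fusion tumors. The log2 difference was -0.83 (SE 0.19, 95% confidence interval -1.27 to -0.39) with a limma adjusted p = 0.369, and by p SOX2 stood at rank 89 of 13694 genes. An exact two-sided permutation test over the 6 tumors gave p = 0.1, the smallest value that 3 against 3 tumors allow.

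The other 2 probe sets of SOX2 had the same direction with overlapping groups. Probe set 11720992_a_at read 8.68, 8.34 and 8.27 in fusion tumors and 8.56, 9.10 and 9.31 in vector tumors. Probe set 11720991_s_at read 5.89, 6.07 and 6.19 in fusion tumors and 5.82, 6.68 and 7.18 in vector tumors. In both, vector tumor 1 lay within or below the fusion tumors and vector tumors 2 and 3 lay above all of them. The differences were -0.56 (SE 0.19) and -0.51 (SE 0.29). In all 3 probe sets vector tumor 3 was highest and vector tumor 1 lowest among the vector tumors.

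The SOX2 difference grew in size without vector tumor 1 and was smallest without vector tumor 3. Without vector tumor 1 the difference was -1.04 and the limma adjusted p = 0.0440, which passes the threshold. With array weights, which give each tumor a weight from its own scatter, the difference was -0.90 and the adjusted p = 0.0149. Calls over all genes also rose in these settings, from 10 to 37 without vector tumor 1 and to 140 with array weights. Leaving out any other single tumor kept the difference between -0.88 and -0.61 (without vector tumor 3) without a call. Skeletal muscle markers were high in 1 tumor of each group: their mean level over 10 marker genes was 6.24 in vector tumor 1 and 6.05 in fusion tumor 2, against 5.21 to 5.51 in the other 4 tumors. The part of muscle RNA in the SOX2 result was not tested.

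**Figure D2:**
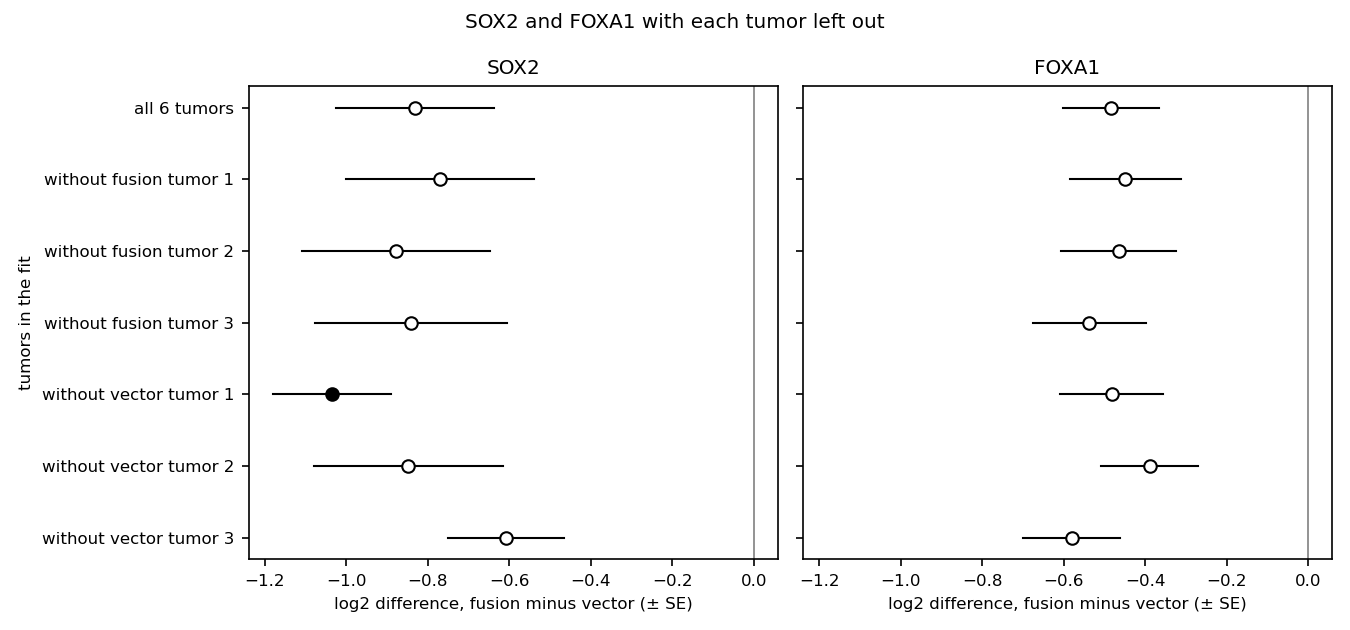
Log2 difference, fusion minus vector, of SOX2 (left) and FOXA1 (right) with all 6 tumors and with each tumor left out in turn; bars are limma's SE and a filled point passed adjusted p 0.05. SOX2 runs from -1.04 without vector tumor 1 to -0.61 without vector tumor 3, and FOXA1 from -0.58 to -0.39.

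SOX4, an effector of TGF-beta signalling in carcinomas, had 7 probe sets, all with a difference below 0, from -0.31 to -0.12. Its brightest probe set, 11758525_s_at, read 9.62, 9.67 and 9.49 in fusion tumors and 10.10, 9.92 and 9.51 in vector tumors. The groups overlapped, because vector tumor 3 lay among the fusion tumors while vector tumors 1 and 2 lay above them. The difference was -0.25 (SE 0.15, 95% confidence interval -0.59 to 0.091, limma adjusted p = 0.956). Without vector tumor 1 it was -0.12, and without vector tumor 3 it was -0.42. Vector tumor 3 was the lowest vector tumor in 6 of the 7 probe sets and vector tumor 1 in the other, 11719559_at.

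SOX9, a factor of lung progenitors and cartilage, was dim, and its 3 probe sets disagreed. Probe set 11758216_s_at read 5.29, 5.17 and 5.15 in fusion tumors and 5.11, 5.001 and 4.75 in vector tumors, with every fusion tumor higher. Probe set 11720447_s_at read 4.67, 4.82 and 4.51 in fusion tumors and 5.18, 4.87 and 4.89 in vector tumors, with every fusion tumor lower. The first gave a difference of 0.25 (SE 0.11, limma adjusted p = 0.882 over all genes) and the second one of -0.32 (SE 0.13, adjusted p = 0.919 over all probe sets). The third, 11720448_at, was at -0.30 with overlapping groups. All 3 lay below the olfactory receptor level of 5.81, and no direction can be given for SOX9.

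FOXA1 was the second factor by p, at rank 108 of 13694 genes. Probe set 11723333_at read 6.04, 6.08 and 6.22 in fusion tumors and 6.60, 6.79 and 6.40 in vector tumors, so all vector tumors were higher. The means were 6.11 ± 0.094 and 6.60 ± 0.19 (SD, n = 3 each), 1.40-fold lower in fusion tumors. The log2 difference was -0.48 (SE 0.12, 95% confidence interval -0.75 to -0.21, limma adjusted p = 0.376; exact permutation p = 0.1). It depended little on vector tumor 1, staying at -0.48 without it, but no single tumor left out gave a call (lowest adjusted p = 0.259). The other probe set, 11748971_a_at, lay below the filter level at 3.82 to 4.35 over all 6 tumors and had a difference of -0.17 with overlapping groups.

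FOXA2, the paralogue of FOXA1 that acts in foregut endoderm and in alveolar maturation, had 1 probe set. It read 5.31, 5.12 and 5.34 in fusion tumors and 5.58, 5.16 and 5.27 in vector tumors, with vector tumor 1 highest. The groups overlapped, with a difference of -0.076 (SE 0.13, 95% confidence interval -0.37 to 0.22, limma adjusted p = 0.983), and it turned to 0.046 without vector tumor 1. FOXA3, the third member of the family, was below the filter level.

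NKX2-1 read 6.02, 6.04 and 5.86 in fusion tumors and 6.04, 5.90 and 6.15 in vector tumors (probe set 11752364_s_at), just above the olfactory receptor level of 5.81. The groups overlapped, with a difference of -0.058 (SE 0.10, 95% confidence interval -0.29 to 0.18). Its other probe set, below the filter level, was at -0.22 with overlapping groups. Of 25 alveolar and NKX2-1 target genes, all had a probe set and 12 were tested, with 5 above 0, 7 below 0, a median of -0.019 and 0 called by limma (0 with an unadjusted p below 0.05). Of the 25, 10 were above the olfactory receptor level, among them the surfactant protein genes SFTPC (7.15 in fusion and 7.07 in vector tumors) and SFTPB (6.12 and 6.20), the lipid transporter ABCA3 (8.47 and 8.39) and NAPSA, a protease that processes surfactant protein (7.53 and 7.62). SFTPC and SFTPB were read by probe sets of the x_at type, which related transcripts can share. Their levels therefore do not show that SFTPC and SFTPB themselves were expressed. The surfactant protein genes SFTPA1, SFTPA2 and SFTPD and the club cell gene SCGB1A1 were among the 13 below the filter level. Without fusion tumor 1 the median was -0.11. The smallest p values belonged to SCGB3A1, a secretoglobin (difference -0.21), LAMP3, a lysosomal protein of surfactant-producing cells (0.34), and the water channel AQP5 (-0.15).

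In the brightest probe set of each of the 9 factors, TFAP2C had the widest spread within groups (SD 0.54 in fusion and 0.64 in vector tumors). Probe set 11726192_at read 6.57, 7.47 and 7.53 in fusion tumors and 8.41, 7.85 and 7.13 in vector tumors. Fusion tumor 1 was lowest and vector tumor 1 highest, and vector tumor 3 lay below fusion tumors 2 and 3, so the groups overlapped. The difference of -0.61 (SE 0.34, 95% confidence interval -1.39 to 0.18, limma adjusted p = 0.956) ran from -0.94 without vector tumor 3 to -0.29 without fusion tumor 1, and was -0.30 without vector tumor 1. The second probe set, 11749776_a_at, had a difference of -0.047 and again had vector tumor 1 highest, at 6.01.

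Its paralogue TFAP2A, an AP-2 factor of skin and neural crest, differed the other way. TFAP2A read 9.86, 9.63 and 9.73 in fusion tumors and 8.79, 9.18 and 9.20 in vector tumors, with every fusion tumor higher. The difference was 0.68 (SE 0.13, limma adjusted p = 0.245), short of the threshold. Whether the differences of these 2 genes differ from each other was not tested.

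PITX1 had 2 probe sets with differences of -0.18 and -0.13. The brighter one, 11721178_a_at, read 6.66, 6.61 and 6.62 in fusion tumors and 7.05, 6.71 and 6.65 in vector tumors. Vector tumors 1 and 2 were above the fusion tumors and vector tumor 3 was among them. Without vector tumor 1 the difference was -0.054. KLF5 read 5.62, 5.46 and 5.57 in fusion tumors and 5.45, 5.41 and 5.52 in vector tumors (probe set 11748762_x_at, a type that related transcripts can share). The KLF5 groups overlapped, with a difference of 0.10 (SE 0.091, 95% confidence interval -0.11 to 0.30). The 2 other KLF5 probe sets were below the filter level, at 0.12 and -0.22. Vector tumor 1 was the highest of all 6 tumors for SOX4, TFAP2C, PITX1 and FOXA2 in the probe set used.

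**Figure D3:**
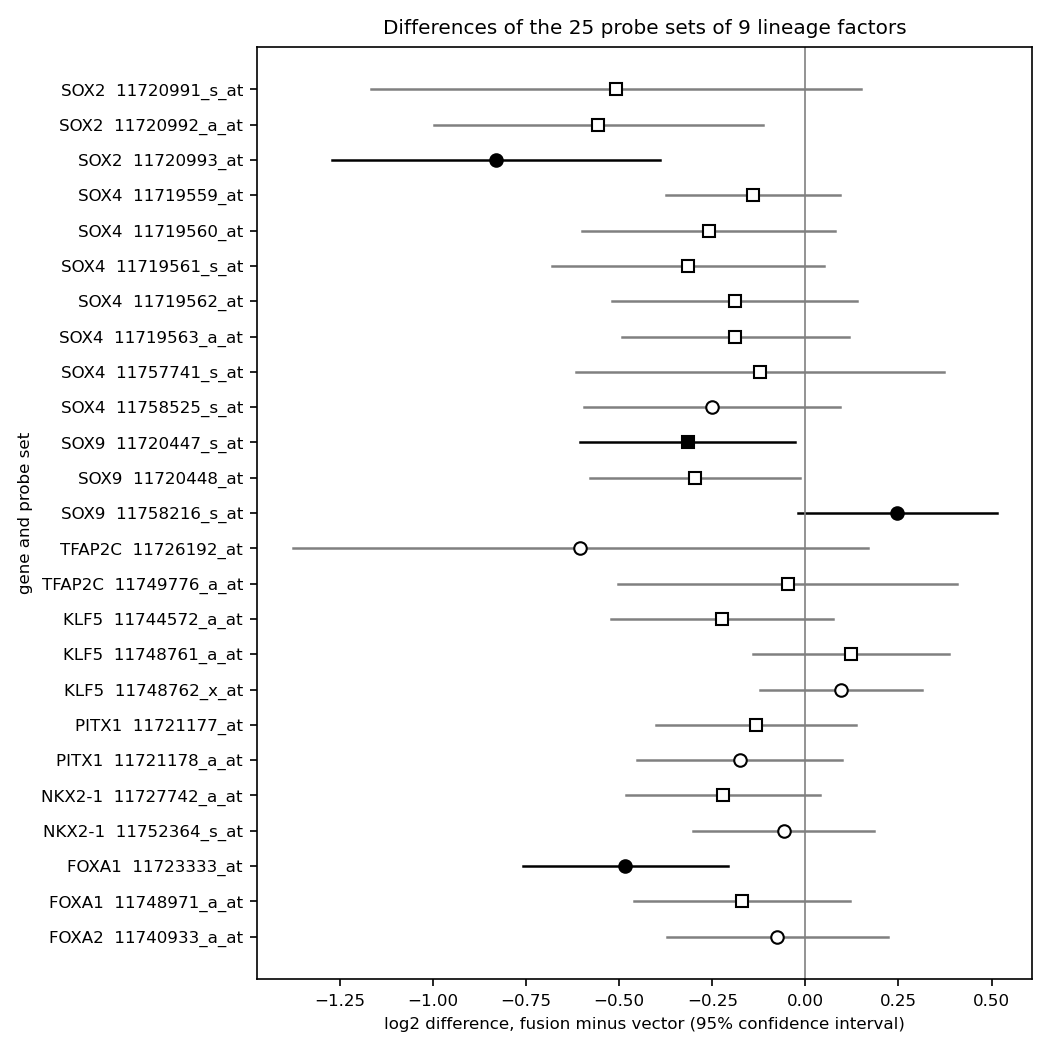
Log2 difference, fusion minus vector, with limma's 95% confidence interval for each of the 25 probe sets, fitted with every probe set as its own feature. Circles are the brightest probe set of a gene, squares the others, and filled symbols are the 4 whose groups do not overlap. Of the 25, 22 lie below 0, and SOX9 has probe sets clear of overlap on both sides of 0.

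Genes related to the factors were counted in the same fit. Of 41 paralogues of the factors, 38 had a probe set and 24 were tested, of which 9 lay above 0 and 15 below, with a median of -0.027. Limma called 0 of them, and 2 had an unadjusted p below 0.05, TFAP2A and KLF6, a zinc finger factor induced by injury. KLF6 had a difference of 0.38 (adjusted p = 0.829) and KLF7 one of 0.48 (adjusted p = 0.925). The 7 other SOX genes tested lay between -0.11 (SOX14) and 0.15 (SOX3), with overlapping groups. Of 20 partners of SOX2 in pluripotent cells, 14 were tested, 9 were above 0 and 5 below, the median was 0.023 and 0 were called (0 with an unadjusted p below 0.05). MYC stood at 0.16, SALL4 at 0.13 and POU5F1, which pairs with SOX2 on DNA, at 0.10.

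SOX2 lies on the distal long arm of chromosome 3, as does TRA2B. Of 42 genes listed from that region, 38 had a probe set and 37 were tested, of which 25 were above 0 and 12 below, with a median of 0.071 and 0 called by limma (2 with an unadjusted p below 0.05). This lean rested on vector tumor 1: without it 16 were above 0 and the median was -0.0086, and with array weights 18 were above 0 and the median was -0.013. The tested genes on either side of SOX2, DNAJC19 and ATP11B, had differences of -0.024 and 0.096. The tight junction protein CLDN1 was at 0.94 (adjusted p = 0.322), the transferrin receptor TFRC at 0.27 (adjusted p = 0.829) and the polarity kinase PRKCI at 0.22. TRA2B was at 0.039 and DNAH5, the other partner of the fusion, at -0.0043. SOX2 itself had a more negative difference than any of these 37 genes, the next being TPRG1 at -0.37.

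The label of the line was checked against markers. Of 36 squamous differentiation genes, 30 had a probe set, 12 of these were below the filter level and 11 were above the olfactory receptor level. The basal keratins KRT5 (5.06 in fusion and 5.19 in vector tumors) and KRT14 (5.71 and 5.70) did not reach the olfactory receptor level of 5.81. The 12 below the filter level were the desmosomal cadherins DSG3 and DSC3, TRIM29, CLCA2, KRT13, BNC1, ZNF750, FAT2, IVL, SPRR1B, SERPINB13 and ADH7. Of 20 epithelial markers, 5 were above the olfactory receptor level, namely OCLN, KRT18, CLDN4, GRHL1 and PRSS8. EPCAM, CDH1, CLDN7, TJP3, ESRP1 and GRHL2 were below the filter level. The mesenchymal intermediate filament VIM stood at 13.85 and 13.73. Of 23 mesenchymal and fibroblast markers, 15 were above the olfactory receptor level. COL6A3, DCN, LUM and SNAI2 of that list were below the filter level. The 11 squamous genes above the olfactory receptor level included the integrins ITGA6 (12.02 and 11.22) and ITGB4 (6.80 and 6.82), the adhesion proteins PERP (9.13 and 9.24) and NECTIN1 (9.01 and 9.19), SFN (7.70 and 7.73), S100A2 (6.26 and 6.22) and the basal keratin KRT15 (6.15 and 5.89). PERP and the epithelial marker KRT18 were read by probe sets of the x_at type, which related transcripts can share. KRT15 was below the olfactory receptor level in fusion tumor 2 (5.59) and vector tumor 2 (5.73), and highest in fusion tumor 1 (6.86). The markers were therefore mixed with respect to the label. These 7 had a mean above the olfactory receptor level, whereas KRT5, KRT14 and the desmosomal cadherins were dim in both groups. The examples were chosen after their values were seen.

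Squamous genes did not lean one way between the groups. Of 18 tested, 9 were above 0 and 9 below, with a median of -0.0031 and 0 called (1 with an unadjusted p below 0.05). That one was ITGA6, the laminin-binding integrin of basal cells, with fusion tumors at 12.02 ± 0.036 and vector tumors at 11.22 ± 0.25 (SD, n = 3 each; difference 0.80, limma adjusted p = 0.127). NECTIN1, an adhesion receptor, was at -0.18 and SPRR3, a cornified envelope protein, at -0.25. Epithelial markers had a median of 0.0069, with 8 above 0 and 6 below, 0 called and 1 with an unadjusted p below 0.05, GRHL1 at 0.37. OCLN was at -0.27 and KRT19 at 0.22.

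Genes of other lineages also lay near 0. Of 27 gut endoderm genes, 23 had a probe set and 10 were tested, with 6 above 0, 4 below and a median of 0.023. SPDEF, a goblet cell factor, was at -0.12 and CREB3L1 at 0.077. FOXM1, which is in the list but is not particular to gut endoderm, was at -0.13. Of 19 neuroendocrine and tuft cell genes, 17 had a probe set and 8 were tested, with 3 above 0, 5 below and a median of -0.046. ASCL2, a tuft cell factor, was at -0.19, NCAM1 at -0.15 and DDC at 0.12. Limma called 0 genes in either list, and 0 had an unadjusted p below 0.05.

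Most mesenchymal and fibroblast markers had a difference above 0. Of 23, all had a probe set and 19 were tested, with 16 above 0, 3 below, a median of 0.20, 0 called by limma, and 5 higher and 1 lower among those with unadjusted p under 0.05. Without vector tumor 1 the median was 0.13, with 15 above 0. FAP, a fibroblast protease, was at 0.91 (adjusted p = 0.202), the factor TWIST2 at 0.38 (adjusted p = 0.404) and the microfibril protein FBN1 at -0.50 (adjusted p = 0.514). The mean level over the 23 genes was 7.13 to 7.22 in fusion tumors and 6.93 to 7.11 in vector tumors, so the groups did not overlap, in the opposite direction to SOX2 and FOXA1. Adipocyte markers had list means of 6.01 to 6.07 in fusion and 6.16 to 6.30 in vector tumors, in the same direction as SOX2 and FOXA1, with 4 of 9 markers above the olfactory receptor level, a median of -0.14 over 7 tested (-0.047 with array weights), 0 called and 3 lower at an unadjusted p below 0.05 (PPARG at -0.38, PLIN1 at -0.33 and CIDEC at -0.26). The part of either in the SOX2 and FOXA1 values was not tested.

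Leukocyte markers had list means of 5.03 to 5.06 in fusion and 4.94 to 5.02 in vector tumors, with 3 of 11 genes above the olfactory receptor level and 0 of 5 tested called by limma (1 with an unadjusted p below 0.05). CD68 had the largest difference of the 5 tested, at 0.80 (adjusted p = 0.112), with CSF1R at 0.17 and CD3E at 0.024. The probe set of CD68 was of the x_at type, which related transcripts can share. PTPRC, CD14, CD163, LYZ, MS4A1 and FCGR3A were below the filter level, with overlapping groups for each. The part of CD68 in the list means was not tested. For endothelial (7 tested), skeletal muscle (6 tested) and erythroid (4 tested) markers the list means of the groups overlapped, with medians of 0.063, -0.15 and -0.047. Without vector tumor 1 the muscle median turned to 0.099 and the erythroid one to 0.082, and without vector tumor 3 the endothelial one was 0.15. Limma called 0 of them, and 0 had an unadjusted p below 0.05. In these 3 lists the smallest p values were those of CDH5 (-0.29), EGFL7 (0.18), TIE1 (0.10), ACTA1 (-0.53), TNNT3 (-0.18), TNNI2 (-0.35), ALAS2 (-0.18), SLC4A1 (-0.059) and HBB (-0.034). The probes are human, and how much mouse RNA they pick up was not tested.

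**Figure D4:**
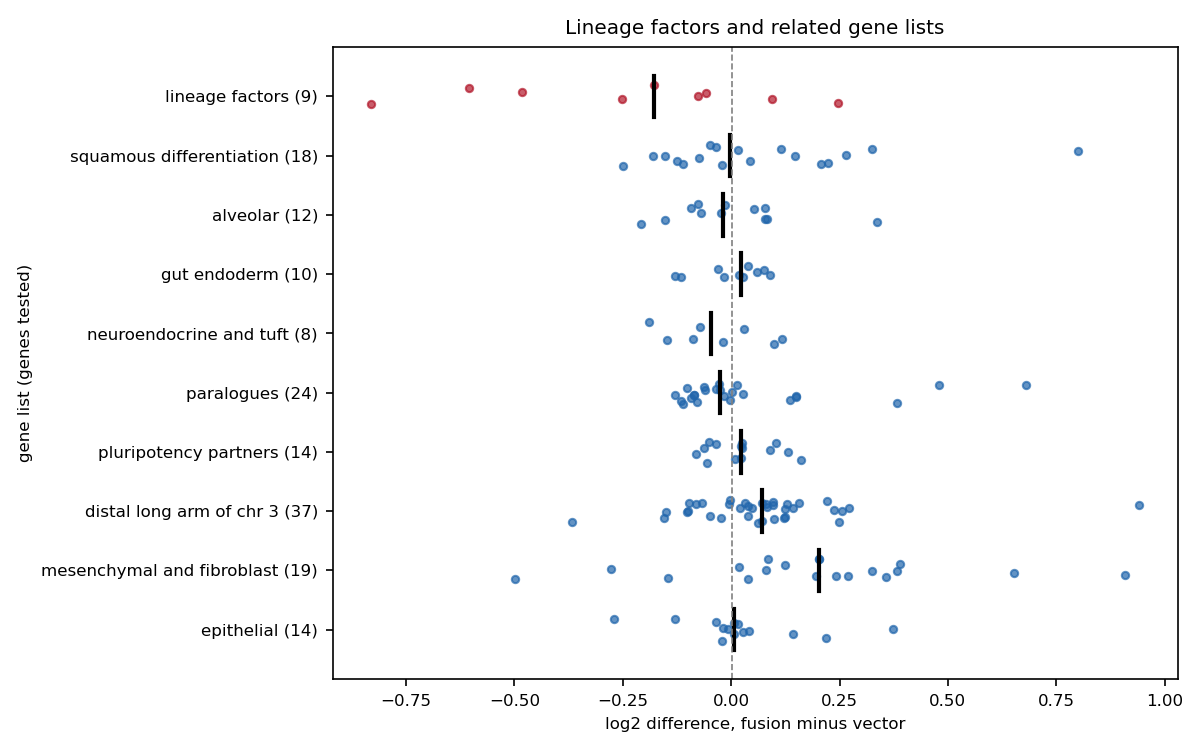
Log2 difference, fusion minus vector, of each tested gene (points, with vertical jitter for legibility) in the 9 factors (red) and in related gene lists (blue), with the number of genes tested in brackets. Black bars are list medians and the dashed line is the median of all 13694 genes at 0.0020. The factors have a median of -0.18, the mesenchymal and fibroblast list one of 0.20, and squamous and epithelial genes lie around 0.

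The genes whose pattern over the 6 tumors was most like that of SOX2 were found by Pearson's r against the other 13693 genes, as a description over 6 points that share the group difference. PGC, a digestive protease precursor also made in alveolar cells, LMBRD2 and BMAL1, a circadian clock factor, had the highest r (0.988, 0.987 and 0.984). Their own differences were -0.32, -0.19 and -0.29. The calcium-activated potassium channel KCNN4 (r = -0.995), the hyaluronidase CEMIP2 (r = -0.985) and CARHSP1 (r = -0.982) had the lowest r and differences of 0.42, 0.52 and 0.18. In all, 216 genes had an r beyond 0.9 in either direction, as many can over 6 points. Among the factors, SOX9 had an r of -0.97 with SOX2 in the probe set used, FOXA1 one of 0.65 and SOX4 one of 0.09.

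For scale, the 3 genes with the smallest p in the same comparison were MMP10, KRTAP2-3 and DAW1, with differences of 2.18, 2.93 and 1.21. The stromelysin MMP10, with fusion tumors at 7.07 ± 0.19 and vector tumors at 4.88 ± 0.31 (SD, n = 3 each), had a limma adjusted p = 0.00629. The difference of SOX2 was smaller than these 3 in size, and its SE of 0.19 lay between those of DAW1 (0.13) and KRTAP2-3 (0.23).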

How the data were processed

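Per the labels' protocols, Trizol was used to take total RNA from 6 tumors, and biotin-labelled material of each went onto its own Affymetrix array. A log2 value per probe set and array was deposited. That these are log2 was inferred from their range, and for background correction, normalization and summarisation the method is not given in the sources used here. Names came from the platform annotation: of 49293 probe sets, 44988 named 1 gene, 1832 several and 2473 none. The members and gene lists were chosen with earlier results of these data known. The tenth factor is not reported here.

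Each gene was represented by its probe set with the highest mean, and 13694 genes at or above the 30th percentile (4.94) were tested two-sided by limma's lmFit and eBayes (limma 3.58.1, R 4.3.3) with no covariate and with Benjamini-Hochberg adjustment over all genes. Single probe sets were fitted over all 49293. The number of arrays limits precision. Named were the factors, the fusion partners, the tested neighbours of SOX2, up to 3 genes per list by smallest p, the genes most like SOX2 and the 3 genes called with the smallest p; others are markers or relatives named after their values were seen. Tested on simulated data with 13694 genes and 200 changed, the fit recovered 84.6% of 2-fold and 98.3% of 4-fold changes, with 5.06% of calls false. The real comparison called 10 genes, so these shares cannot be carried over to it. There, CLDN1 was 1.92-fold higher in fusion tumors and was not called (limma adjusted p = 0.322). Alternatives covered the filter, the probe set, quantile normalization, median centring, variance models, the replicate number as a block and leaving out each tumor. Figures used Python 3.11.15 and matplotlib 3.10.9.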

Additional observations from a re-analysis of the deposited data

How the results depend on the processing

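Over the 9 factors, 140 of 148 alternative values kept the direction and the side of the threshold, 2 passed it (SOX2 with array weights and without vector tumor 1) and 6 reversed. Reversed were SOX9 in its other probe sets (-0.32 and -0.30), KLF5 in another probe set (-0.22), FOXA2 with array weights (0.066) and without vector tumor 1 (from -0.16 to 0.046 over the tumors left out), and NKX2-1 without vector tumor 3 (from -0.12 to 8.22e-05). The cause was not tested. The count of factors called by limma was 1 with array weights and 0 to 1 with a tumor left out. The SOX2 adjusted p ran from 0.0149 to 1.00 over all alternatives.

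The count of genes called, 10 with all tumors, was 1 with the filter at the 50th percentile, 6 with the filter at the olfactory receptor level, 16 with the mean of probe sets, 6 with the most variable probe set, 5 with every probe set as a feature and 140 with array weights. With a tumor left out it ran from 0 (without fusion tumor 1, 669 at an unadjusted p below 0.05) to 37 (without vector tumor 1), and was 3 without each of the other 4 in turn. The first filter left out SOX9, KLF5, NKX2-1 and FOXA2, and the second SOX9, KLF5 and FOXA2. The mean of probe sets kept 7 factors in the test and the most variable probe set 6.

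With the replicate number as a block in the model, 8 genes and 0 factors were called (3 factors with an unadjusted p below 0.05), and the adjusted p of SOX2 was 0.215. The labels state no pairing, so the numbers were not taken as one in the main fit. Same-numbered tumors deviated together weakly (r of deviations from the group means 0.097, 0.17 and 0.051), but all 6 tumors correlated best with their own number. Whether the numbers mark a pairing is therefore not known. Quantile normalization and median centring moved the median of all genes to -0.017 and -0.027 and changed no direction of a factor. Over all alternatives the list medians ran from 0.065 to 0.28 for mesenchymal and fibroblast markers, -0.064 to 0.062 for squamous genes, -0.11 to 0.032 for alveolar genes, -0.12 to 0.045 for gut endoderm genes and -0.013 to 0.12 for the genes of chromosome 3. With 3 tumors per group, and SOX9, KLF5 and FOXA2 near the background of the array, the precision for small differences is low.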
